A study of Drosophila melanogaster with 12 samples.

Results

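Chromosome 4 is the smallest autosome of Drosophila melanogaster, and 44 of its named genes are described here by sex and age. They were chosen by name and by their chromosome. All 44 had a row in the deposited gene counts, which hold 15631 genes in all, and all 44 lie on chromosome 4 in the RefSeq annotation (assembly Release 6 plus ISO1 MT). Of these, 43 were found by symbol, and Thd1 was found as a synonym of Tdg. Another 66 genes of the chromosome had a row, so that 110 were counted, 80 of them protein-coding. The whole flies came from w1118, a white-eyed laboratory strain, and were mated, then kept apart by sex on a diet of sugar and yeast, with no further treatment. The 4 groups were 30-day-old males, 30-day-old females, 10-day-old males and 10-day-old females, with 3 samples of 10 pooled flies each from independent experiments. Poly(A) RNA was sequenced, so each value is an average over all tissues of 10 flies.

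The chromosome is largely packed as heterochromatin, yet its genes are transcribed from within it. Males and females both carry it as a pair. The protein Pof binds its genes and raises their output, while heterochromatin protein HP1a and the methyltransferase egg mark the same chromatin. The listed genes include the Pax6 regulators of eye development, the transcription factors at the end of the Hedgehog and Wingless pathways, TGF-beta ligands, plexins and the Eph receptor, proteins of synaptic release, and regulators that most cells use.

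The libraries held 23097763 to 62924598 counts. Levels are given as CPM, counts scaled to the library total with TMM factors, and a gene counted as higher or lower expressed in males when edgeR's quasi-likelihood test gave an adjusted p under 0.05 over all genes tested. To check the sex labels, lncRNA:roX1, a noncoding RNA that coats the X in males, averaged 596 CPM in males and 0.789 CPM in females at 30 days, and 764 and 3.53 CPM at 10 days. Yp1, which encodes yolk protein, averaged 1.44 CPM in males and 166 CPM in females at 30 days, and 4.27 and 646 CPM at 10 days. In each library, 1 to 62 genes had no count although both other libraries of the group held at least 50 counts. Among the listed genes this touched sv in replicate 2 of the 30-day females. In whole flies fewer cells of a type and less RNA per cell cannot be told apart.

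Marker genes of tissues differed between the sexes as well. The summed level of 14 neuron markers was 1269 to 2096 CPM in males and 117 to 169 CPM in females at 30 days, and 1495 to 1718 and 217 to 232 CPM at 10 days. Of these 14, 13 were called higher and 1 lower in males at both ages. For 11 photoreceptor markers the sums were 6235 to 7170 CPM in males and 314 to 799 CPM in females at 30 days, and 7545 to 9085 and 832 to 1680 CPM at 10 days. None of these 25 genes was at 0 throughout a group. The 9 female germline markers summed to 522 to 719 CPM in males and 2318 to 3174 CPM in females at 30 days, and to 1057 to 1180 and 2654 to 2948 CPM at 10 days. Gene by gene, 8 of the 9 were called lower and 0 higher in males at 30 days, with a median log2 fold change of -6.83. At 10 days 7 were lower and 1 higher, with a median of -7.42, so the sums understate the difference of most of these genes. The part of these tissues in the results was not tested. As an alternative, libraries were also scaled by the median ratio over the neuron, photoreceptor and muscle markers, which is called marker-gene scaling here. Markers with a count of 0 in any library of a fit were left out. Of the muscle markers 1 was at 0 in all 10-day females. Marker-gene scaling shifted the median log2 fold change of all genes, males over females, by -3.77 at 30 days and -2.83 at 10 days. A gene that is negative under TMM stays negative under such a shift, so a kept negative sign is no further support. The 3 classes could not be level together. Under TMM their medians were 4.01 (neuron), 4.01 (photoreceptor) and 1.99 (muscle) at 30 days, and 2.99, 2.88 and 1.73 at 10 days.

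Between males and females, the listed genes were split evenly. At 30 days 19 of 44 were higher and 19 lower expressed in males, and at 10 days 21 were higher and 21 lower. Over all genes tested, 48.4% were higher and 30.4% lower in males at 30 days, and 46.8% were higher and 31.6% lower at 10 days. At each age the male and female libraries did not overlap for 42 of the 44 genes, where 85.1% of all genes at 30 days and 84.8% at 10 days did not overlap. The median log2 fold change, males over females, was 0.09 for the listed genes and 1.32 for all genes at 30 days, and -0.02 and 1.06 at 10 days. For all protein-coding genes alone it was 0.90 at 30 days and 0.68 at 10 days. With an absolute log2 fold change above 1 required in addition, 30 of 44 genes remained at 30 days and 33 at 10 days, beside 71.3% and 68.4% of all genes. The plot of the log2 fold changes gives the genes by role.

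**Figure D1:**
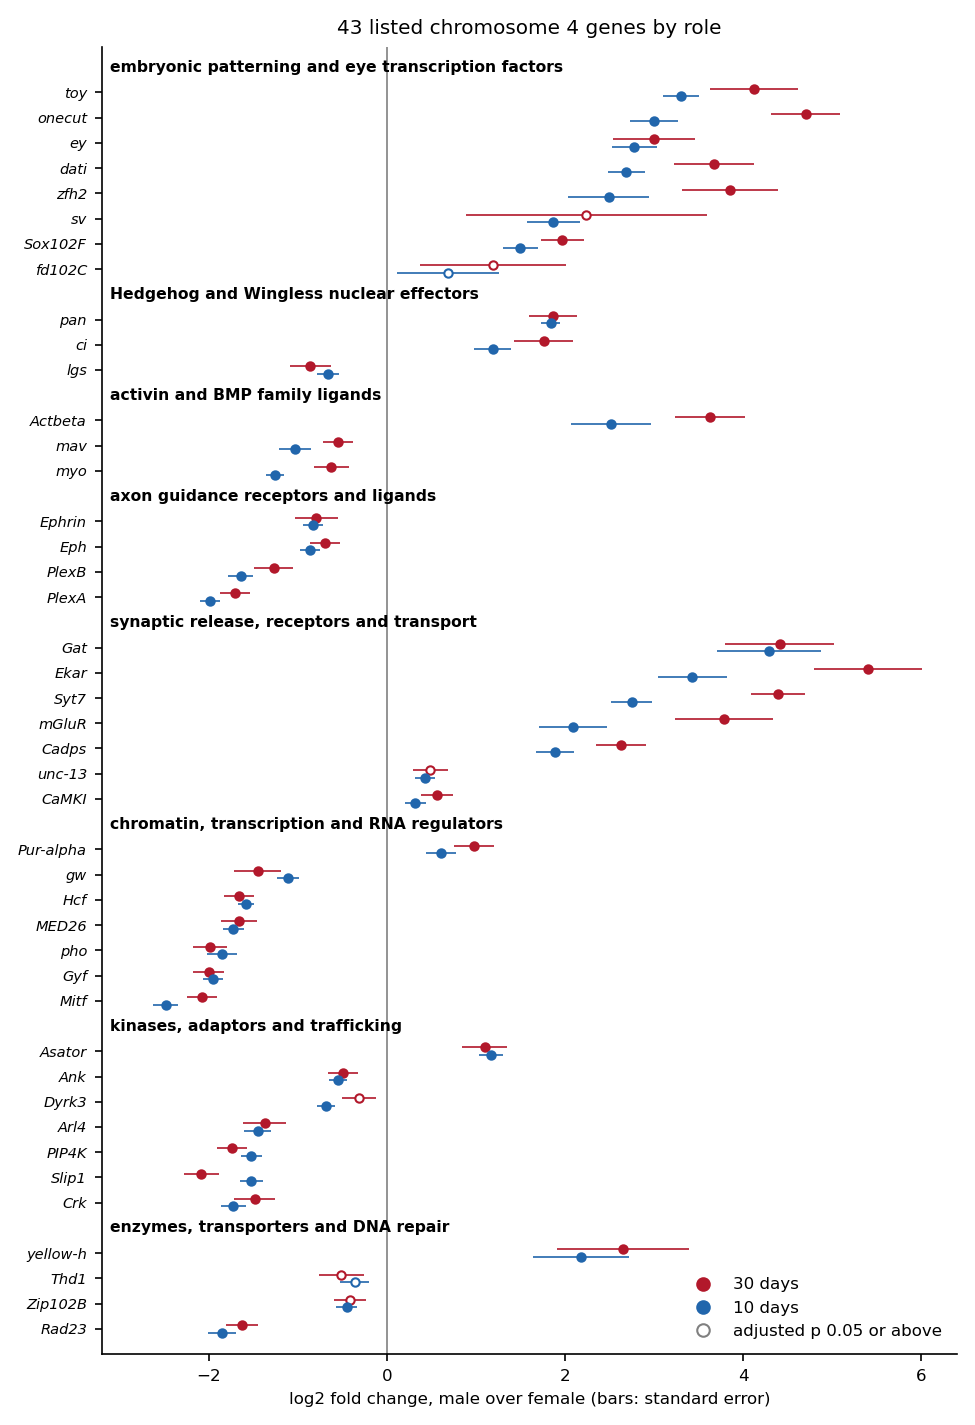
Log2 fold change of males over females (x axis, bars are standard errors) for 43 chromosome 4 genes in 8 role groups, at 30 days (red) and 10 days (blue), with open circles for an adjusted p of 0.05 or above. Eye and patterning factors and synaptic genes lie to the right of 0, and axon guidance genes lie to the left. Marker-gene scaling, which moves all genes toward females, takes most eye and patterning factors below 0 at both ages. It does so for most synaptic genes at 10 days only. JYalpha is left out because its counts were 0 in all 10-day female libraries.

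Among the 8 patterning and eye transcription factors, 6 were higher expressed in males at 30 days and 7 at 10 days, and none was lower. The group's median log2 fold change was 3.34 at 30 days and 2.59 at 10 days, but -0.49 and -0.31 with marker-gene scaling, where none was called higher. Twin of eyeless (toy), a Pax6 protein that acts at the top of the eye network, had 51.2, 23.6 and 34.8 CPM in 30-day males, against 1.14, 2.19 and 2.78 CPM in 30-day females. In 10-day flies toy had 37.9, 43.7 and 44.2 CPM in males and 4.31, 3.91 and 3.83 CPM in females. The sexes were far apart at both ages, with a log2 fold change of 4.12 ± 0.49 (SE, adjusted p = 0.000157) at 30 days and 3.30 ± 0.20 (adjusted p = 1.25e-05) at 10 days. Its relative eyeless (ey), the other Pax6 protein of the network, had 26.2, 14.3 and 19.6 CPM in males and 1.5, 2.75 and 3.0 CPM in females at 30 days. At 10 days ey had 22.5, 20.4 and 20.7 CPM in males and 2.53, 2.8 and 3.47 CPM in females. The libraries did not overlap, and ey had a log2 fold change of 3.00 ± 0.46 (adjusted p = 0.000595) at 30 days and 2.78 ± 0.25 (adjusted p = 6.55e-05) at 10 days.

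Onecut, a homeodomain factor of differentiating neurons, showed the third largest male excess of the list at 30 days. It had 82.5, 47.9 and 56.8 CPM in males and 2.31, 1.51 and 3.23 CPM in females at 30 days, and 57.8, 73.3 and 47.2 CPM in males and 5.34, 7.82 and 7.83 CPM in females at 10 days. The log2 fold change of onecut was 4.70 ± 0.39 (adjusted p = 3.27e-05) at 30 days and 3.00 ± 0.27 (adjusted p = 6e-05) at 10 days. The zinc finger factor dati (3.67 at 30 days and 2.69 at 10 days), the homeodomain protein zfh2 (3.85 and 2.49) and the Sox family protein Sox102F (1.97 and 1.5) were also higher expressed in males. The Pax family protein shaven (sv) was higher at 10 days (1.87 ± 0.30, adjusted p = 0.000962), a call lost in 1 fit of all 12 libraries (1.96, adjusted p = 0.0993). At 30 days sv had 7.36, 5.16 and 6.79 CPM in males and 2.37, 0 and 1.66 CPM in females (2.24 ± 1.35, adjusted p = 0.158), and without the female replicate 2, the library at 0, its log2 fold change was 1.60 (adjusted p = 0.0295). The forkhead factor fd102C was the lowest of the group and did not pass at either age (1.19 ± 0.82, adjusted p = 0.211, and 0.69 ± 0.57, adjusted p = 0.293). Exons of zfh2 and Thd1 overlap on opposite strands over 18.7% of the exon length of zfh2, and whether counting used strand is not given in the sources used here. Of 7 further retinal determination genes from other chromosomes, all 7 were higher expressed in males at both ages, with toe furthest apart (8.10 at 30 days and 8.95 at 10 days), and 2 of 7 were called higher with marker-gene scaling. The photoreceptor sums, given above, differed in the same direction.

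Cubitus interruptus (ci), the Gli-type transcription factor of the Hedgehog pathway, and pangolin (pan), the TCF partner of beta-catenin in the Wingless pathway, were both higher expressed in males (lower with marker-gene scaling), whereas legless (lgs), which links beta-catenin to its co-activator, was lower. For ci the libraries gave 27.4, 23.8 and 34.7 CPM in males and 8.04, 6.09 and 10.6 CPM in females at 30 days, and 28.6, 34.2 and 29.1 CPM in males and 10.5, 13.6 and 13.9 CPM in females at 10 days. The log2 fold change of ci was 1.76 ± 0.33 (adjusted p = 0.00166) at 30 days and 1.19 ± 0.21 (adjusted p = 0.00168) at 10 days. For pan the values were 203, 111 and 153 CPM in males and 50, 32.5 and 41.8 CPM in females at 30 days, and 195, 181 and 183 CPM in males and 52.5, 46.6 and 49.0 CPM in females at 10 days. Its male excess was nearly equal at the 2 ages, 1.87 ± 0.27 (adjusted p = 0.000383) at 30 days and 1.84 ± 0.11 (adjusted p = 1.18e-05) at 10 days. For lgs, 106, 89.6 and 122 CPM in males stood against 136 to 217 CPM in the 3 female libraries at 30 days, and 101, 112 and 122 CPM in males against 183, 139 and 181 CPM in females at 10 days. The female libraries lay above the male ones, with a log2 fold change of -0.86 ± 0.23 (adjusted p = 0.00979) at 30 days and -0.66 ± 0.12 (adjusted p = 0.00174) at 10 days, and the 30-day call of lgs was lost with upper quartile factors (-0.51, adjusted p = 0.0622).

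The rest of these pathways, whose genes lie on other chromosomes, were mostly lower expressed in males. They were so with marker-gene scaling too, which moves all genes toward females. Of 9 Hedgehog pathway genes, 1 was higher and 7 lower expressed in males at 30 days, and 2 higher and 7 lower at 10 days. The ligand hh was the one higher at 30 days (2.24), and the transducer smo was lowest (-3.73). At 10 days the receptor ptc was highest (2.71) and the co-receptor ihog lowest (-3.87). Of 11 Wingless pathway genes, 1 was higher and 6 lower at 30 days and 1 higher and 7 lower at 10 days. At both ages the receptor fz2 was the higher one (1.55 and 1.51, not called higher with marker-gene scaling) and the receptor fz the lowest (-4.01 and -3.41).

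The 3 ligands of the TGF-beta family did not move together. Activin-beta (Actbeta), a ligand made by neurons, was higher expressed in males (not with marker-gene scaling), while maverick (mav) and myoglianin (myo), a ligand of muscle and glia, were lower. Actbeta had 30.6, 24.6 and 27.5 CPM in males and 2.75, 1.38 and 2.39 CPM in females at 30 days, and 25.8, 27.5 and 20.9 CPM in males and 3.42, 6.21 and 2.31 CPM in females at 10 days. This gave a log2 fold change of 3.63 ± 0.39 (adjusted p = 9.94e-05) at 30 days and 2.52 ± 0.45 (adjusted p = 0.00167) at 10 days. For mav the libraries gave 120, 154 and 128 CPM in males and 170, 203 and 197 CPM in females at 30 days, and 105, 86.3 and 128 CPM in males and 214, 216 and 184 CPM in females at 10 days. For myo they gave 71.4, 85.8 and 108 CPM in males and 137, 133 and 123 CPM in females at 30 days, and 69.1, 79.2 and 77.5 CPM in males and 169, 164 and 175 CPM in females at 10 days. Males and females did not overlap for either ligand, and the difference was larger at 10 days for both, though this change with age was not called (mav 0.44 ± 0.23, adjusted p = 0.445, and myo 0.60 ± 0.21, adjusted p = 0.271, in the interaction).

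The log2 fold change of mav was -0.55 ± 0.17 (adjusted p = 0.019) at 30 days and -1.03 ± 0.18 (adjusted p = 0.0017) at 10 days, and that of myo -0.62 ± 0.20 (adjusted p = 0.0199) and -1.25 ± 0.10 (adjusted p = 3.99e-05). The 30-day calls of both were lost with single libraries left out and with other factors. For mav the value became -0.47 (adjusted p = 0.0759) when male replicate 1 was left out, -0.52 (adjusted p = 0.0608) when male replicate 3 was left out and -0.52 (adjusted p = 0.0592) when female replicate 3 was left out. For myo it became -0.48 (adjusted p = 0.07) when male replicate 1 was left out and -0.60 (adjusted p = 0.0555) when male replicate 2 was left out. Upper quartile factors gave -0.21 (adjusted p = 0.219) for mav and -0.28 (adjusted p = 0.222) for myo, RLE factors -0.36 (adjusted p = 0.0655) and -0.43 (adjusted p = 0.0641), and DESeq2 -0.36 (adjusted p = 0.0618) and -0.43 (adjusted p = 0.0692). Of 11 other activin and BMP pathway genes, 2 had higher and 5 lower levels in males at 30 days, and 4 higher and 6 lower levels at 10 days, with none higher under marker-gene scaling. The ligand gbb was highest at 30 days (3.08) and the ligand dpp at 10 days (2.24), and the signal transducer Mad was lowest at both ages (-1.95 and -1.96).

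All 4 axon guidance genes were lower expressed in males at both ages. They are the semaphorin receptors plexin A (PlexA) and plexin B (PlexB), the receptor kinase Eph and its ligand Ephrin. The sign of all 4 was also negative with RLE, upper quartile and total counts factors. Marker-gene scaling moves all genes toward females, so it could not turn this sign. PlexA had 146, 126 and 156 CPM in males and 495, 440 and 418 CPM in females at 30 days, and 136, 156 and 147 CPM in males and 581, 520 and 533 CPM in females at 10 days. Its log2 fold change of -1.70 ± 0.17 (adjusted p = 6.39e-05) at 30 days and -1.98 ± 0.11 (adjusted p = 1.11e-05) at 10 days was the widest of the group. PlexB had 28.9, 23.5 and 34.5 CPM in males and 62.4, 72.4 and 68.0 CPM in females at 30 days, and 25.6, 27.4 and 31.4 CPM in males and 87.7, 77.9 and 82.8 CPM in females at 10 days (-1.27 ± 0.22 and -1.64 ± 0.14). Eph was closer between the sexes, with 120, 90.8 and 98.7 CPM in males and 171, 165 and 147 CPM in females at 30 days, and 112, 119 and 106 CPM in males and 203, 188 and 187 CPM in females at 10 days (-0.69 ± 0.17 and -0.86 ± 0.11). Ephrin had 81.3, 48.7 and 85.0 CPM in males and 122, 127 and 111 CPM in females at 30 days, and 72.1, 75.0 and 74.1 CPM in males and 137, 114 and 121 CPM in females at 10 days (-0.79 ± 0.24 and -0.83 ± 0.11). With upper quartile factors the 30-day calls of Eph (-0.35, adjusted p = 0.0905) and Ephrin (-0.44, adjusted p = 0.129) were lost. Of 7 semaphorin pathway genes from other chromosomes, 2 were higher and 2 lower in males at 30 days, and 5 were higher and 2 lower at 10 days, while marker-gene scaling gave 0 higher and 5 lower at each age. Sema2b (4.74) and otk (3.11) were highest at 30 and 10 days, and Sema2a, a ligand of PlexB, was lowest at both (-4.33 and -3.81).

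**Figure D2:**
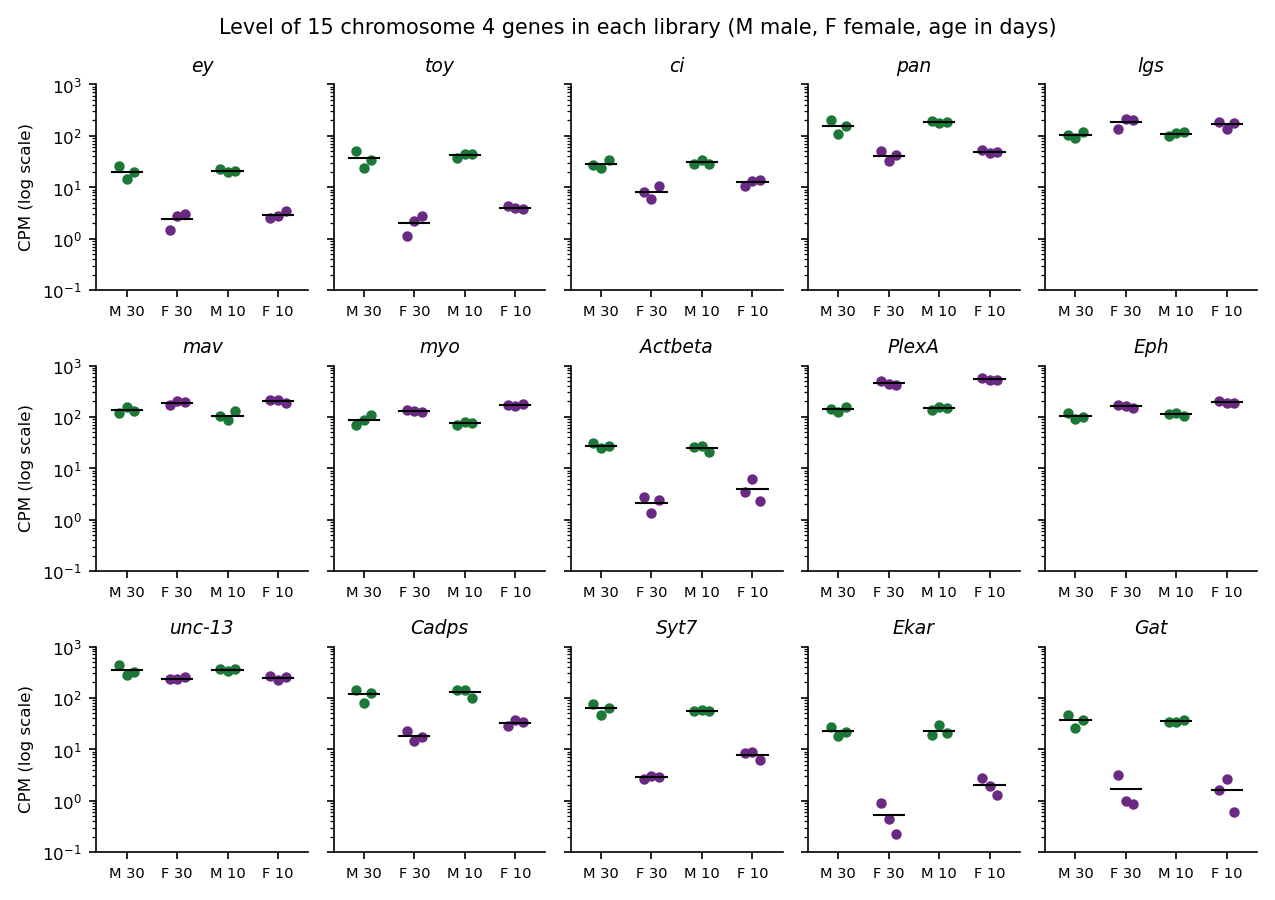
CPM of 15 chromosome 4 genes in each of the 12 libraries (y axis, log scale), by sex (M male in green, F female in purple) and age in days, with the group mean as a line. Ekar lies between 18.5 and 29.4 CPM in the males of both ages and between 0.228 and 0.895 CPM in the 30-day females, while PlexA lies between 126 and 156 CPM in males and between 418 and 581 CPM in females.

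The 7 synaptic genes were all higher expressed in males at 10 days, and 6 of them at 30 days, against 1 and 0 with marker-gene scaling. The group's median log2 fold change was 3.78 at 30 days and 2.09 at 10 days, beside 4.01 and 2.99 for the neuron markers. Ekar, a kainate-type glutamate receptor subunit enriched in the eye, had 27.5, 18.5 and 22.3 CPM in males and 0.895, 0.442 and 0.228 CPM in females at 30 days, and 19.2, 29.4 and 21.1 CPM in males and 2.81, 1.92 and 1.33 CPM in females at 10 days. Its log2 fold change of 5.40 ± 0.61 (adjusted p = 0.000122) at 30 days and 3.43 ± 0.39 (adjusted p = 0.000175) at 10 days was among the 3 largest of the list at each age. Gat, the GABA transporter of glia, had 47.6, 25.8 and 36.8 CPM in males and 3.22, 0.982 and 0.865 CPM in females at 30 days, and 34.1, 34.1 and 37.0 CPM in males and 1.61, 2.7 and 0.619 CPM in females at 10 days. Gat had a log2 fold change of 4.41 ± 0.61 (adjusted p = 0.000353) at 30 days and 4.29 ± 0.58 (adjusted p = 0.000409) at 10 days.

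Synaptotagmin 7 (Syt7), a calcium sensor of vesicle release, had 77.7, 45.9 and 64.7 CPM in males and 2.64, 3.06 and 2.98 CPM in females at 30 days, and 54.7, 58.5 and 56.8 CPM in males and 8.62, 8.94 and 6.18 CPM in females at 10 days. For Syt7 the log2 fold change was 4.39 ± 0.30 (adjusted p = 1.79e-05) at 30 days and 2.75 ± 0.23 (adjusted p = 4.58e-05) at 10 days. The metabotropic glutamate receptor mGluR had 40.6, 17.9 and 20.2 CPM in males and 2.06, 0.933 and 2.62 CPM in females at 30 days, and 30.3, 31.3 and 24.8 CPM in males and 8.62, 6.92 and 3.51 CPM in females at 10 days (3.78 ± 0.55 and 2.09 ± 0.38). Cadps, which primes dense-core vesicles for release, had 143, 81.2 and 127 CPM in males and 22.7, 14.7 and 17.6 CPM in females at 30 days, and 141, 145 and 102 CPM in males and 28.4, 37.0 and 33.5 CPM in females at 10 days (2.63 ± 0.28 and 1.89 ± 0.21). The sexes did not overlap for any of these receptors and release factors.

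The vesicle priming factor unc-13 and the calcium-dependent kinase CaMKI differed least between the sexes among the synaptic genes. In 30-day flies unc-13 had 442, 274 and 320 CPM in males and 235, 229 and 250 CPM in females (0.49 ± 0.20, adjusted p = 0.0544), and it passed without male replicate 2 (0.63, adjusted p = 0.0249), in DESeq2 (0.68, adjusted p = 0.00555) and with upper quartile factors (0.82, adjusted p = 0.00884). In 10-day flies it had 359, 328 and 372 CPM in males and 267, 226 and 253 CPM in females (0.43 ± 0.11, adjusted p = 0.0077). Antisense transcript asRNA:CR43425 overlaps 15.6% of its exon length. CaMKI averaged 263 ± 20 CPM in males and 173 ± 33.9 CPM in females at 30 days (SD, n = 3 each), and 277 ± 17.0 and 210 ± 6.84 CPM at 10 days. Its calls (0.56, adjusted p = 0.0207, and 0.32, adjusted p = 0.0411) were lost at 30 days without male replicate 1 or 3 or female replicate 2 or 3 (0.43 to 0.56, adjusted p from 0.0522 to 0.0983) and at 10 days without female replicate 1 or 3 (0.28, adjusted p = 0.147, and 0.26, adjusted p = 0.142). With total counts both calls of CaMKI were lost (0.30, adjusted p = 0.18, and 0.16, adjusted p = 0.22).

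Of the 7 chromatin, transcription and RNA regulators, 6 were lower expressed in males at both ages. The median log2 fold change was -1.66 at 30 days and -1.72 at 10 days. With marker-gene scaling, which moves all genes toward females, all 7 were lower. Pleiohomeotic (pho), the protein that brings Polycomb complexes to DNA, had 50.1, 45.1 and 63.4 CPM in males and 211, 210 and 187 CPM in females at 30 days, and 71.2, 48.8 and 66.4 CPM in males and 227, 199 and 214 CPM in females at 10 days. The difference in pho gave a log2 fold change of -1.98 ± 0.19 (adjusted p = 5.79e-05) at 30 days and -1.85 ± 0.17 (adjusted p = 6.23e-05) at 10 days. Gawky (gw), the GW182 protein of microRNA silencing, had 261, 214 and 251 CPM in males and 420, 762 and 733 CPM in females at 30 days, and 240, 253 and 262 CPM in males and 570, 417 and 568 CPM in females at 10 days. The female libraries of gw spread more than the male ones, and the log2 fold change was -1.45 ± 0.26 (adjusted p = 0.00125) at 30 days and -1.11 ± 0.12 (adjusted p = 0.000133) at 10 days.

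Mitf, a transcription factor of lysosome genes, and Gyf, a GYF-domain protein that represses translation, were among the 3 genes furthest toward females at each age. Mitf had 71.8, 64.0 and 75.6 CPM in males and 272, 312 and 276 CPM in females at 30 days, and 78.0, 67.1 and 61.5 CPM in males and 394, 345 and 357 CPM in females at 10 days. The log2 fold change of Mitf was -2.07 ± 0.17 (adjusted p = 2.85e-05) at 30 days and -2.48 ± 0.14 (adjusted p = 1.08e-05) at 10 days. Gyf had 166, 137 and 168 CPM in males and 575, 656 and 590 CPM in females at 30 days, and 152, 155 and 165 CPM in males and 581, 566 and 574 CPM in females at 10 days. The log2 fold change of Gyf, -2.0 ± 0.17 (adjusted p = 3.72e-05) at 30 days and -1.95 ± 0.11 (adjusted p = 1.01e-05) at 10 days, was nearly equal at the 2 ages. The Mediator subunit MED26 (-1.66 and -1.72) and the transcriptional cofactor Hcf (-1.66 and -1.58) were lower in males as well. Pur-alpha, a nucleic acid binding protein, was the exception, though not with marker-gene scaling, with 123 ± 17.4 CPM in males and 60.4 ± 15.2 CPM in females at 30 days and 107 ± 19.4 and 66.4 ± 1.34 CPM at 10 days (0.98, adjusted p = 0.00392, and 0.61, adjusted p = 0.0125).

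Among 7 kinases, adaptors and trafficking proteins, 5 were lower in males at 30 days and 6 at 10 days. With marker-gene scaling, which moves all genes toward females, all 7 were lower. The Slo-interacting protein Slip1 was the gene of the list furthest toward females at 30 days, with 59.9, 41.3 and 49.8 CPM in males and 229, 204 and 185 CPM in females, and it had 68.6, 79.5 and 59.7 CPM in males and 188, 177 and 202 CPM in females at 10 days. Slip1 had a log2 fold change of -2.08 ± 0.20 (adjusted p = 5.47e-05) at 30 days and -1.52 ± 0.13 (adjusted p = 4.73e-05) at 10 days. The lipid kinase PIP4K (-1.74 and -1.52), which shares 20% of its exon length with CG33521 on the opposite strand (2.31 and 2.33), the SH2 and SH3 adaptor Crk (-1.48 and -1.72) and the small GTPase Arl4 (-1.37 and -1.45) were lower expressed in males at both ages. The kinase Dyrk3 was lower at 10 days (-0.68) and did not pass at 30 days (-0.31 ± 0.19, adjusted p = 0.173). The membrane linker Ank was lower at both ages (-0.49, adjusted p = 0.0261, and -0.55), but its 30-day call was lost without male replicate 2 or 3 or female replicate 3 (-0.51 to -0.38, adjusted p from 0.061 to 0.0842), in DESeq2 (-0.31, adjusted p = 0.115), with RLE factors (-0.31, adjusted p = 0.118), with upper quartile factors (-0.16, adjusted p = 0.414) and with the replicate number as a block (-0.51, adjusted p = 0.0669). Asator, a kinase related to tau tubulin kinases, was higher in males except under marker-gene scaling, with 119 ± 36.5 CPM in males and 54.0 ± 4.64 CPM in females at 30 days and 121 ± 6.44 and 50.8 ± 6.82 CPM at 10 days (1.10, adjusted p = 0.00413, and 1.17, adjusted p = 0.000142).

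The 5 remaining genes, of enzymes, transporters and DNA repair, held the extreme of the list. JYalpha encodes a Na+/K+ ATPase alpha subunit known for its need in male fertility. It had 12.3, 23.7 and 10.7 CPM in males and 0.448, 0 and 0 CPM in females at 30 days, and 39.6, 39.3 and 29.5 CPM in males and 0 in all 3 female libraries at 10 days. The count in the 30-day female replicate 1 was 20. Against a floor of 3 counts in each female library, JYalpha was at least 709-fold higher in males at 10 days. At 30 days its log2 fold change was 6.69 ± 1.51 (adjusted p = 0.00409). Only its male libraries brought JYalpha past the count filter, so its calls add no support beyond these counts. The summed level of 10 testis markers was 1813 to 2913 CPM in males and 221 to 256 CPM in females at 30 days, and 3577 to 3629 and 215 to 236 CPM at 10 days, with 1 of the 10 at 0 in all females. Of the 10, 9 were called higher and 1 lower in males at both ages, with median log2 fold changes of 10.64 at 30 days and 11.16 at 10 days. The lower one had -2.98 at 30 days and -2.38 at 10 days. The part of testis in the level of JYalpha was not tested. The repair protein Rad23 was lower in males (-1.62 and -1.85). The zinc transporter Zip102B passed only at 10 days (-0.45, adjusted p = 0.0113, against -0.41, adjusted p = 0.065, at 30 days), and the difference between the ages was not called (interaction adjusted p = 1). With total counts Zip102B passed at 30 days too (-0.67, adjusted p = 0.00815), and with upper quartile factors it did not pass at 10 days (-0.24, adjusted p = 0.0605).

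The thymine DNA glycosylase Thd1 passed at neither age (-0.51 ± 0.25, adjusted p = 0.0877, and -0.36 ± 0.16, adjusted p = 0.0755). It passed at 30 days without female replicate 1 (-0.74, adjusted p = 0.0255) and at 10 days without female replicate 2 (-0.50, adjusted p = 0.0119), and with total counts at both ages (-0.77, adjusted p = 0.0297, and -0.54, adjusted p = 0.0247). Yellow-h was higher expressed in males (2.65 ± 0.74, adjusted p = 0.0114, at 30 days and 2.18 ± 0.54, adjusted p = 0.00779, at 10 days), which marker-gene scaling turned, and the 30-day call was lost without male replicate 1 (2.35, adjusted p = 0.0522). Antisense transcript asRNA:CR46065 overlaps 12.1% of its exon length.

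The sex difference of the listed genes was much alike at the 2 ages, which share no library. All 44 had the same sign at 30 and at 10 days, 38 (86.4%) were called at both ages and all 38 in the same direction, 19 higher and 19 lower in males. Of all 12694 genes tested at both ages, 72.4% were called at both. Among those 9190 genes only 14 had opposite directions, so a shared direction is not particular to the listed genes. Across 43 genes, without JYalpha, Pearson's r between the log2 fold changes of the 2 ages was 0.981 and Spearman's rho was 0.972. Both are a description across genes, which are not independent replicates, and neither was computed over all genes. The genes called only at 10 days were sv, unc-13, Dyrk3 and Zip102B. Of the 21 genes higher in males at 10 days, 19 had a larger log2 fold change at 30 days, beside 52.9% of all genes higher in males at 10 days, and of the 21 lower genes, 14 had a smaller difference at 30 days, beside 45.7%. These are TMM values. With marker-gene scaling, 7 of the 44 sex by age interactions were positive and 37 negative.

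Levels between genes were compared per kilobase of exon. In 30-day males CaMKI (77.8 CPM per kb), Rad23 (55.5) and mav (49.6) were highest, and fd102C (0.72), sv (1.24) and zfh2 (1.88) lowest. In 30-day females Rad23 (166), Crk (124) and PIP4K (118) were highest, and JYalpha (0.0478), zfh2 (0.127) and Ekar (0.176) lowest. At 10 days CaMKI (81.8) and Rad23 (53.4) led in males and Rad23 (182) and Crk (119) in females. The order therefore began with the same repair gene in females of both ages and with the same kinase in males of both ages.

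Along the chromosome, genes higher in males and genes higher in females were mixed under TMM scaling. Of 79 tested protein-coding genes of chromosome 4, 37 were higher and 28 lower in males at 30 days and 39 higher and 33 lower at 10 days. Over all protein-coding genes 46.6% were higher and 32.7% lower at 30 days, and 45.1% and 34.4% at 10 days. Among neighbours in which both genes were called, 22 of 52 pairs at 30 days and 29 of 64 pairs at 10 days had the same direction. Neighbours on other arms were not counted, so these shares describe chromosome 4 alone. The longest run of 1 direction held 7 genes at both ages, all higher in males with TMM, CG31999, yellow-h, CG1674, dpr7, RhoGAP102A, NfI and Syt7, of which yellow-h and Syt7 are on the list.

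**Figure D3:**
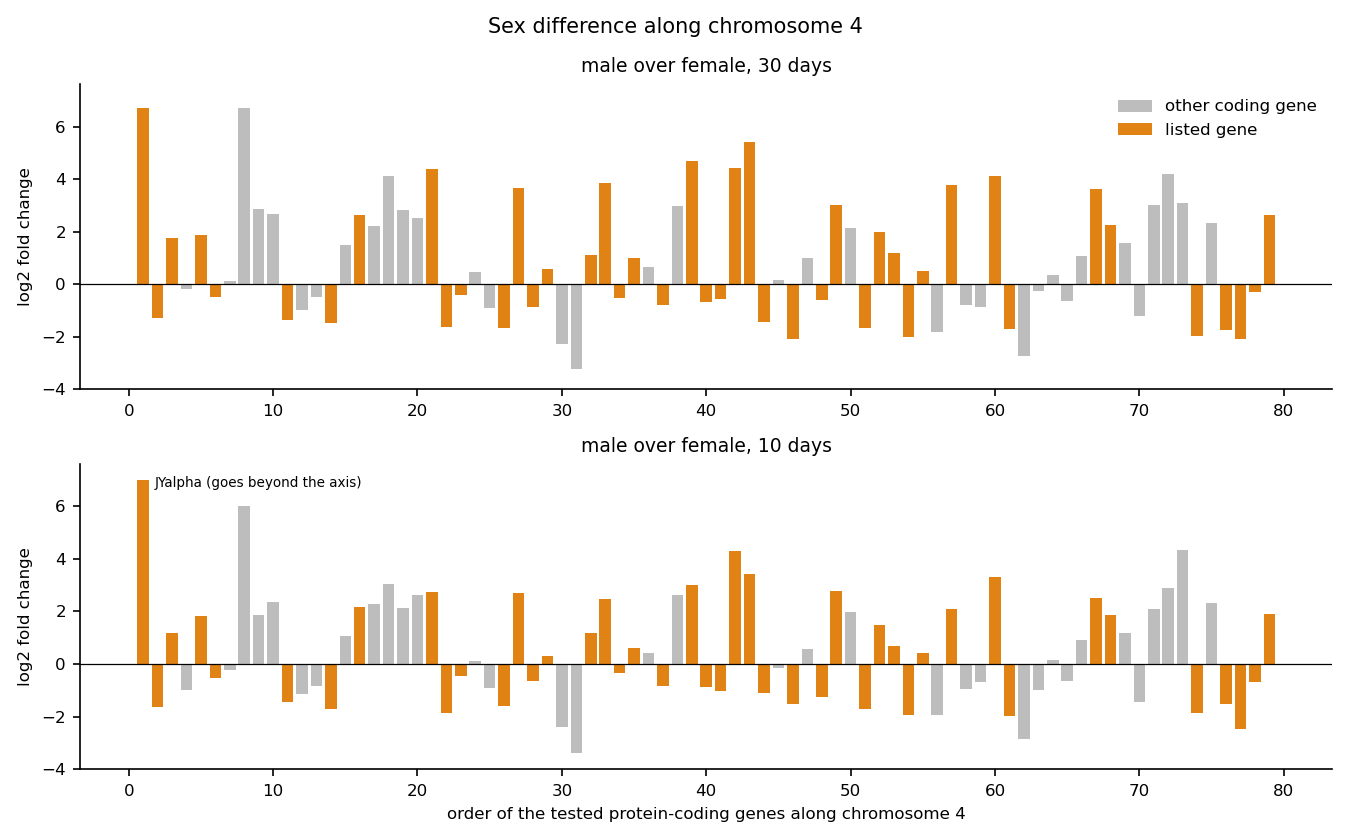
Log2 fold change of males over females (y axis) for the 79 tested protein-coding genes in their order along chromosome 4 (x axis), at 30 days (top) and 10 days (bottom), listed genes in orange and others in grey. Bars above and below 0 are mixed along the whole chromosome (TMM scaling). JYalpha, the leftmost bar, has no counts in 10-day females, and its bar there is drawn only to the edge.

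Of the 35 tested protein-coding genes of chromosome 4 that are not on the list, 18 were higher and 9 lower in males at 30 days (51.4% and 25.7%), and 18 higher and 12 lower at 10 days (51.4% and 34.3%), with medians of 0.65 and 0.41. These shares were near those of all protein-coding genes, 46.6% and 32.7% at 30 days and 45.1% and 34.4% at 10 days, with medians of 0.90 and 0.68. Among unlisted coding genes, those furthest toward females were CG33941 (-3.22 at 30 days and -3.39 at 10 days), CG11076 (-2.74 and -2.87) and Taf3 (-2.29 and -2.39). The noncoding lncRNA:CR43437, lncRNA:CR45199 and asRNA:CR44027 had no count in any female library. Against the floor of 3 counts in each female library these 3 RNAs were at least 155-fold, 15.7-fold and 117-fold higher in males at 30 days, and at least 213-fold, 36.1-fold and 245-fold higher at 10 days. Exons of asRNA:CR44027 overlap dati, and those of CG33941 overlap Asator, on the opposite strand.

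The medians of whole chromosome arms differed too. At 30 days the median log2 fold change was 0.39 for the X chromosome and 1.13 to 1.99 for the arms 2L, 2R, 3L and 3R, and at 10 days it was 0.14 and 1.00 to 1.72. Many genes with very low levels enter those medians. Over genes with a mean of at least 1.99 CPM, the level of the lowest listed gene, the median of all 88 such genes of chromosome 4 was 0.82 at 30 days and 0.50 at 10 days, and that of all genes was 0.71 and 0.49. The listed genes thus lay 0.62 and 0.51 below all genes of such a level, against 1.22 and 1.08 below all genes tested.

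Of 10 proteins that act on the chromatin of chromosome 4, encoded elsewhere, Pof was higher and the other 9 lower expressed in males at both ages, and with marker-gene scaling Pof had a negative sign at 30 days too. Pof averaged 353 ± 75.1 CPM in males and 72.8 ± 6.04 CPM in females at 30 days, and 551 ± 58.7 CPM in males and 65.3 ± 5.2 CPM in females at 10 days. Its log2 fold change was 2.23 ± 0.20 (adjusted p = 4.71e-05) at 30 days and 2.99 ± 0.15 (adjusted p = 7.96e-06) at 10 days. Su(var)3-7, a zinc finger partner of heterochromatin protein 1, was furthest toward females (-4.17 and -3.59). Egg, the histone methyltransferase, was lower by a similar amount at both ages (-2.59 and -2.96).

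Of the scalings used, only that by marker genes greatly changed how many genes were called higher in males. With marker-gene scaling only JYalpha at 30 days, and JYalpha and Gat (1.63, adjusted p = 0.0087) at 10 days, were called higher in males, beside 20.1% and 22% of all genes, and 31 and 32 of the 44 were called lower, beside 56.5% and 53.3% of all genes. The median of the synaptic genes was then 0.07 at 30 days and -0.70 at 10 days. Cadps (-1.20 at 30 days and -0.94 at 10 days), unc-13 (-3.36 and -2.42), CaMKI (-3.26 and -2.52), ci (-2.0 and -1.65), pan (-1.95 and -1.01), Sox102F (-1.86 and -1.35), Pur-alpha (-2.84 and -2.23) and Asator (-2.77 and -1.68) were called lower in males under these factors. The axon guidance genes, mav, myo and lgs kept their negative sign, which a shift toward females cannot turn. No Hedgehog pathway gene had a positive sign. The listed genes still lay 1.31 and 1.12 below the median of all genes. RLE factors, upper quartile factors and total counts shifted the median by -0.28 to 0.30 and gave 18 to 20 higher and 13 to 22 lower genes at 30 days, and 20 to 21 and 20 to 22 at 10 days, with no called gene changing its sign.

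**Figure D4:**
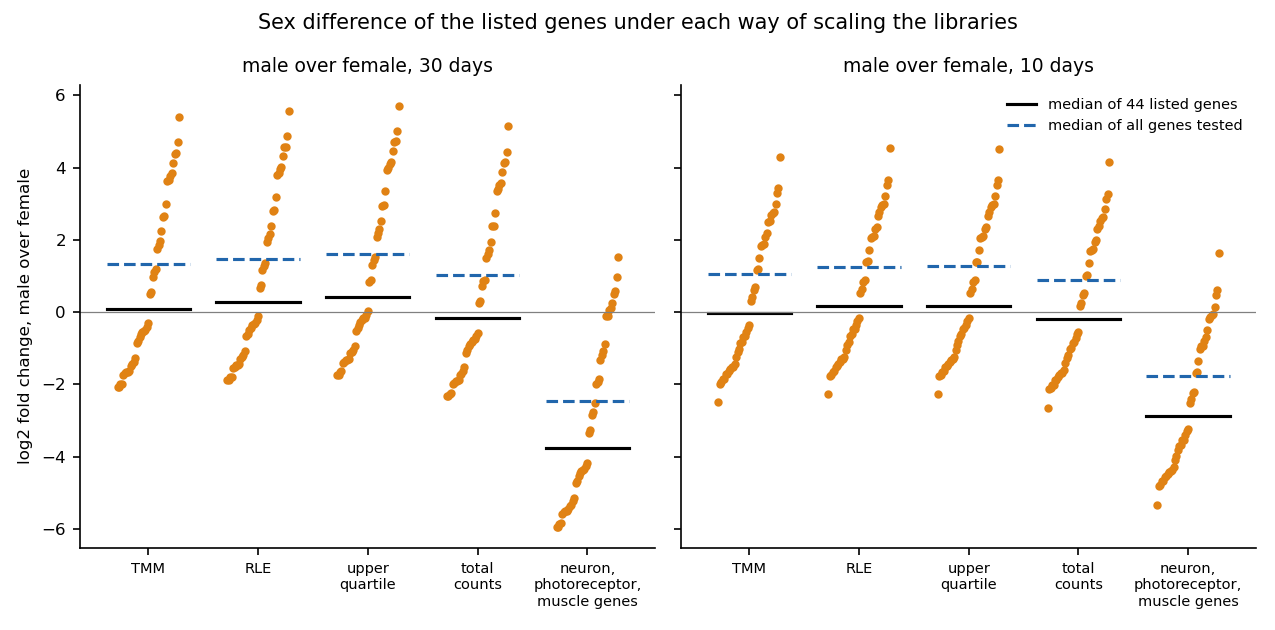
Log2 fold change of males over females (y axis) of 43 listed genes (points, sorted within each column) under 5 ways of scaling the libraries (x axis), at 30 days (left) and 10 days (right), with the median of the 44 listed genes as a black line and that of all genes tested as a dashed blue line. Under neuron, photoreceptor and muscle genes both medians move down together, the listed genes to -3.77 and -2.89.

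Between 30 and 10 days, edgeR called few genes in either sex. In males edgeR called none of the 44, where 0.452% of all genes were called, and 1 gene had an unadjusted p under 0.05, beside 12.1% of all genes. DESeq2 called 0 of the 42 to which it gave an adjusted p, beside 5.68% of all such genes, and limma-voom called 1, beside 8.93% of all genes. The fit of the 6 male libraries alone called 1 of 44, JYalpha (-1.13, adjusted p = 0.0479), beside 4.58% of all genes. The gene with an unadjusted p under 0.05 was Slip1 (log2 fold change of 30 over 10 days -0.46, adjusted p = 0.274). The gene called by limma-voom was JYalpha, with the male levels given above (-1.22, adjusted p = 0.71 in edgeR, and -1.41, adjusted p = 0.0133 in limma-voom). None of the 10 testis markers was called in males, where all 10 had a negative sign and a median of -0.69. The log2 fold change of the listed genes in males ranged from -1.22 to 0.56, with a median of -0.04 beside -0.08 for all genes. All 3 libraries of 30 days lay below all 3 of 10 days for sv, Hcf and JYalpha and above for Crk, beside 15.5% and 9.92% of all genes.

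In females 1 of the 44 genes was called, where 0.325% of all genes were. Syt7 was lower at 30 days, with the female libraries given above (-1.45 ± 0.23, adjusted p = 0.0279). Its libraries did not overlap between the ages. The call was lost when any of 8 libraries was left out, among them each 10-day male library (adjusted p from 0.0501 to 0.066), and it was lost in limma-voom (adjusted p = 0.226), with total counts (0.0762), with the replicate number as a block (0.0868) and in the 6 female libraries alone (0.25). DESeq2 called 4 more genes lower at 30 days, onecut (-1.57), Cadps (-0.84), mGluR (-1.75) and Ekar (-1.95), which edgeR gave adjusted p of 0.0673, 0.169, 0.15 and 0.121, so that it called 5 of 44 in all (11.4%), beside 4.82% of all genes with an adjusted p. At an unadjusted p under 0.05 edgeR gave 13 of 44 (29.5%), beside 13.6% of all genes. Limma-voom called 0 of 44, beside 0.672% of all genes, and the fit of the 6 female libraries alone called 0 of 43, beside 0.242%. In edgeR onecut also passed without the 30-day female replicate 3 (-1.96, adjusted p = 0.0194) and Ekar without the 30-day female replicate 1 (-2.59, adjusted p = 0.0427).

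The 8 libraries whose removal ended the call of Syt7 were replicate 3 of the 30-day males, replicates 1 and 2 of the 30-day females, all 3 of the 10-day males and replicates 1 and 2 of the 10-day females. With TMM, all 3 female libraries of 30 days lay below all 3 of 10 days for 14 of the 44 genes, and above for none, beside 8.62% and 5.11% of all genes. They were toy, sv, fd102C, onecut, myo, PlexA, PlexB, Eph, Cadps, Syt7, mGluR, Ekar, Mitf and Dyrk3. The neuron markers lay below in 10 of 14 genes and the photoreceptor markers in 5 of 11, with median log2 fold changes of -0.83 and -1.43, and their part in the result was not tested. The listed genes had a median of -0.25 in females beside 0.00 for all genes. With marker-gene scaling the direction of most of them turned, and 22 listed genes (50%) were called higher at 30 days and none lower, beside 38.2% and 1.29% of all genes. Of the 44, 36 then had a positive and 8 a negative sign. Among those with a negative sign were Syt7 (-0.43, adjusted p = 0.362), onecut, mGluR, Ekar, sv, fd102C and yellow-h.

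**Figure D5:**
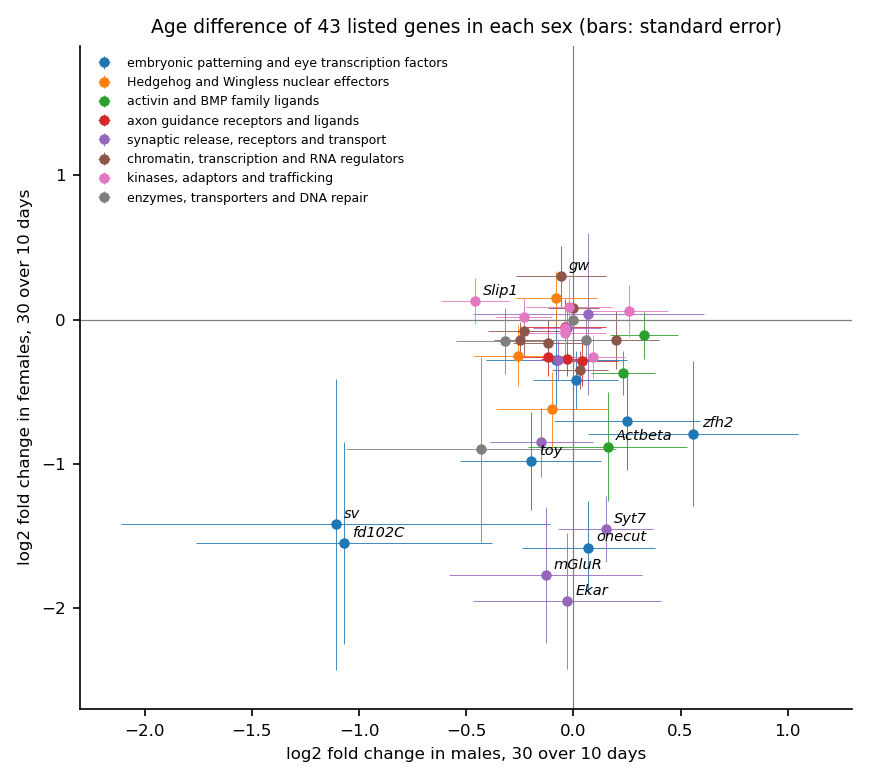
Log2 fold change of 30 over 10 days in males (x axis) and in females (y axis) for 43 listed genes, coloured by role, with standard errors as bars. Syt7, onecut, mGluR and Ekar lie between -1.45 and -1.95 in females and between -0.13 and 0.15 in males, and sv and fd102C lie at -1.11 and -1.07 in males and at -1.42 and -1.55 in females (TMM scaling, where marker-gene scaling moves most female values above 0). JYalpha is left out because it had no counts in 10-day females.

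Whether the sex difference changed with age was tested as an interaction over all 12 libraries. edgeR called none of the 44 genes, where 0.0141% of all genes were called, and 7 of 44 (15.9%) had an unadjusted p under 0.05, beside 13% of all genes. In simulated data this test recovered 2 of 100 genes changed by an absolute log2 of 1 and 33 of 100 changed by 2. DESeq2 called Syt7 (1.58, adjusted p = 0.000643) and onecut (1.63, adjusted p = 0.0306), for which edgeR gave 1.60 ± 0.32 (adjusted p = 0.0901) and 1.65 ± 0.44 (adjusted p = 0.171), beside 4.05% of all genes with an adjusted p in DESeq2, and limma-voom called none of the 44, beside 0.587% of all genes. Among genes counted in all groups, Ekar had the largest interaction (1.92 ± 0.64, adjusted p = 0.246), followed by onecut and mGluR (1.64 ± 0.64, adjusted p = 0.308). Under TMM 32 of 44 interactions were positive (median 0.21), beside 51% of all genes (median 0.02), and with marker-gene scaling 7 of 44 were positive (median -0.73), beside 23.3% of all genes (median -0.77), with no listed gene called.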

How the data were processed

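Per the labels and the study's methods, poly(A) libraries of whole flies were sequenced as 150 bp paired reads. The authors deposited whole-number counts per NCBI gene, without normalization. Their aligner and counting tool are not given in the sources used here. A further 12 columns of normalised values, 1 per library, had lost their decimal marks and were not used, nor were 2 short FPKM tables that also hold the authors' own p-values. A gene missing from 1 age's table was taken as 0.

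Counts were tested in edgeR 4.0.16 (R 4.3.3) with TMM factors, filterByExpr (10 counts in at least 3 libraries, 15 in total), glmQLFTest and Benjamini-Hochberg adjustment. Sexes were compared in the 6 libraries of an age (13013 genes at 30 days, 13334 at 10 days), ages and the interaction in all 12 (14146 genes). All 44 genes passed the filter, JYalpha through its male libraries only. SE is the log2 fold change over the root of F. Alternatives used DESeq2 1.42.0, limma 3.58.1, other factors, filters and library sets. The fit was tested on simulated data, where 100 genes were changed by an absolute log2 of 1 and 100 by 2. In the interaction 2 and 33 of these were recovered, in females between ages 18 and 45, and in males 23 and 69. Between the sexes 5 and 39 were recovered at 30 days and 15 and 39 at 10 days. Only these genes were changed there. In the data 48.4% of genes were called higher and 30.4% lower in males at 30 days, and 46.8% and 31.6% at 10 days. The adjustment of p is stricter with few changed genes, so the simulated shares do not give the recovery of the real sex comparisons. A gene that was not called is not shown to be unchanged. Exon lengths are unions in BDGP6.54. No 2 of the 66 library pairs held identical counts. Members and lists were chosen with earlier results of these data known. Values per library are given for the called genes furthest in each direction and for 21 genes set by name, and other genes by role. Sequence comparisons of promoters and proteins were not run.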

Additional observations from a re-analysis of the deposited data

How the results depend on the processing

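With factors from neuron, photoreceptor and muscle genes, 1 listed gene was called higher and 31 lower in males at 30 days and 2 and 32 at 10 days, and 22 were called in females between the ages. Called signs turned under these factors only. Some uncalled values near 0 changed sign under other settings too, such as Dyrk3 at 30 days (0.03 with upper quartile factors). At 30 days the log2 fold changes of males over females became -0.88 for ey, -1.86 for Sox102F, -2.53 for fd102C, -0.11 for dati, -2.0 for ci, -1.95 for pan, -0.12 for Actbeta, -3.36 for unc-13, -1.20 for Cadps, -3.26 for CaMKI, -2.84 for Pur-alpha, -2.77 for Asator and -1.07 for yellow-h. At 10 days they became -0.08 for ey, -0.95 for sv, -1.35 for Sox102F, -2.20 for fd102C, -0.49 for zfh2, -0.14 for dati, -1.65 for ci, -1.01 for pan, -0.19 for Actbeta, -2.42 for unc-13, -0.94 for Cadps, -0.04 for Syt7, -0.70 for mGluR, -2.52 for CaMKI, -2.23 for Pur-alpha, -1.68 for Asator and -0.80 for yellow-h. In females, 30 over 10 days, they became 0.90 for mav, 0.72 for PlexA, 0.75 for Eph, 0.96 for Ephrin, 0.91 for unc-13, 0.69 for CaMKI, 0.93 for pho, 0.86 for Hcf, 0.83 for MED26, 0.83 for Pur-alpha, 0.93 for Arl4, 0.92 for Ank, 0.85 for Rad23 and 0.99 for Zip102B. These factors assume that the marker genes are level per fly RNA in both sexes, which was not tested. The muscle markers were not level with the neuron and photoreceptor markers, whose medians under TMM were further toward males.

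Between ages, limma-voom and the 6 male libraries alone called 1 listed gene in males against 0 in edgeR. In females, against 1, DESeq2 called 5, and limma-voom, total counts, the replicate block and the 6 female libraries alone called 0. DESeq2 called 2 in the interaction against 0. The median of the listed genes less that of all genes was -1.22 at 30 days for males over females and became -1.87 in DESeq2, -1.86 with no filter, -1.57 in 1 fit of all 12 libraries and -0.62 over genes at or above the lowest listed gene's mean CPM, an alternative chosen after seeing the data. At 10 days it was -1.08 and became -1.47 in DESeq2, -1.12 in limma-voom, -1.44 with no filter, -1.23 with a mean of 10 counts, -1.12 with the replicate block, -1.30 in 1 fit of 12 libraries and -0.51 over genes of that level. For females between ages it was -0.25 and became -0.30 in limma-voom, -0.29 with upper quartile factors, -0.16 with total counts, -0.14 with factors from marker genes and -0.22 with the replicate block.

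With each library left out in turn, 17 to 20 genes were higher and 17 to 20 lower in males at 30 days, 20 to 21 higher and 21 to 22 lower at 10 days, none was called in males between ages or in the interaction, and 0 to 2 in females between ages. The medians less all genes ranged from -1.65 to -1.01 at 30 days, from -1.31 to -1.08 at 10 days, from -0.04 to 0.17 in males between ages and from -0.32 to -0.24 in females. Same-numbered libraries did not deviate together (correlations of -0.093 to 0.047), so the numbers were not taken as pairs. With the replicate block 18 genes were higher and 18 lower in males at 30 days and 20 and 22 at 10 days. The promoter motif and its core were not run. Genes with few counts in females carry wide standard errors between ages there, 0.47 for Ekar, 0.56 for Gat, 0.70 for fd102C and 1.01 for sv on the log2 scale.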
